A study of Rattus norvegicus with 24 samples.

Results

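The 6 arrays described here hold midbrain RNA of gonadally intact female rats in proestrus, the phase of the estrous cycle in which estradiol is high and females are sexually receptive. They were chosen as arrays of intact rats whose titles are numbers alone, and they are 6 of the 24 arrays of the series. Arrays of rats with ovaries and adrenals removed also have numbers as titles, and they are not described here. Arrays 2543, 2538 and 2531 are labelled paced mated, and arrays 2526, 2536 and 2539 are labelled chamber-exposed. The rats were adult Long-Evans females of 50 to 60 days, with regular cycles, no surgery and no injected hormone. Paced mated rats could move to and from a male through a hole in a partition that kept the male on his side, in a test of 15 min. Chamber-exposed rats were yoked controls placed in the same apparatus when it was clean and empty. All were decapitated at once after the test, and the midbrain was cut out by hand between the optic chiasm and the pons, so the tissue is a block with many cell types. RNA integrity numbers were between 8.5 and 10. The comparison asks which midbrain transcripts differ when a receptive female has just mated. The sources used here do not say which rat gave which array, nor whether another 6 arrays of intact rats, titled Intact, come from the same rats. P-values therefore measure the spread between these arrays.

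The array, Affymetrix Rat Genome 230 2.0, reads each transcript with probe sets of short oligonucleotides. Signals are log2 values made by RMA (robust multi-array average), in which a step of 1 is a doubling. They fell between 3.58 and 14.70 over the 6 arrays, the array medians were 7.33 to 7.35, and 20% of probe sets lay below 5.35 to 5.41. No detection calls were used, so the signal at which a transcript is absent is unknown. The number of arrays limits the precision. Control probe sets of the housekeeping genes beta-actin and Gapdh were even. Beta-actin read from the 3′ end lay between 13.26 and 13.41 on the 6 arrays and from the 5′ end between 12.14 and 12.30. Gapdh read from the 3′ end lay between 13.38 and 13.51.

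The anterior pituitary is a gland below the hypothalamus whose cells each make a hormone. Somatotrophs make growth hormone, lactotrophs prolactin, thyrotrophs thyrotropin, corticotrophs the precursor of corticotropin, and gonadotrophs the gonadotropins LH and FSH. These cells push large amounts of peptide through the endoplasmic reticulum (ER), where new proteins enter the lumen, fold and leave in coated vesicles. The midbrain itself holds dopamine neurons of the ventral tegmental area and substantia nigra, which take part in motivation and in the female's approach to the male.

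The content of each array is given first, since arrays of the same label were not alike. Th, tyrosine hydroxylase of dopamine neurons, read 9.95, 10.79 and 11.18 on the arrays labelled paced mated, against 11.47, 11.25 and 10.76 on those labelled chamber-exposed. It lay at the 86.9 to 96.9 percentile of the arrays, so the defining marker of dopamine neurons was present on all 6. Pmch, the melanin-concentrating hormone precursor of the lateral hypothalamus, lay between 13.43 and 13.76 on the 6 arrays, among the strongest signals of each. Gabra6, a GABA receptor subunit of cerebellar granule cells, lay at the 22.9 to 26.1 percentile. Midbrain and lateral hypothalamic transcripts were thus present on all arrays. Gabra6 lay near the low end, but the 10 cerebellum genes tested had median signals of 7.14 to 8.01 on the 6 arrays.

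Pituitary content differed between arrays of the same label. Probe sets of different genes are not on 1 scale, so the signal of each gene on an array is taken as its deviation from the mean of that gene over the 6 arrays, and a list is given by the median deviation of its genes. For 11 hormone and releasing hormone receptor genes this was −0.97, −1.02 and −0.24 on arrays 2543, 2538 and 2531, against 0.96, 0.88 and 0.88 on arrays 2526, 2536 and 2539. All 3 arrays labelled paced mated lay below the other 3, with array 2531 between. Gh1, growth hormone, read 6.95, 5.96 and 13.33 on the arrays labelled paced mated, against 14.15, 13.90 and 14.07 on those labelled chamber-exposed. Prl, prolactin, read 9.89, 5.50 and 13.93 on the arrays labelled paced mated, against 14.29, 14.26 and 14.20 on those labelled chamber-exposed. Both hormones were thus high on array 2531 and on the 3 arrays labelled chamber-exposed, and lower on arrays 2543 and 2538. Array 2531 differed from the chamber-exposed mean by −0.71 for Gh1 and −0.32 for Prl, but by −1.83 for Tshb, −1.60 for Cga and −1.48 for Lhb, genes described further on. In whole tissue such as this, fewer cells of a type and less RNA per cell cannot be told apart.

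Other regional content set single arrays apart. Slc17a7, the vesicular glutamate transporter of cortex and hippocampus, read 10.35, 7.30 and 6.52 on the arrays labelled paced mated, against 8.09, 7.13 and 7.73 on those labelled chamber-exposed. Bhlhe22, a transcription factor of cortical neurons, read 11.07, 8.32 and 8.28 on the arrays labelled paced mated, against 9.22, 8.22 and 8.13 on those labelled chamber-exposed. Both were highest on array 2543, where the median deviation of the 12 cortex and hippocampus genes was 0.28, and −0.11 to −0.04 on the other 5 arrays. Ttr, transthyretin of the choroid plexus, read 12.39, 7.98 and 8.49 on the arrays labelled paced mated, against 7.64, 7.92 and 13.71 on those labelled chamber-exposed, so 1 array of each label stood apart. The median deviation of the 10 choroid plexus genes was 0.91 on array 2539 and −0.20 to −0.02 on the others. Oxt, oxytocin of the paraventricular and supraoptic nuclei, read 8.76, 12.03 and 11.84 on the arrays labelled paced mated, against 9.40, 11.39 and 11.54 on those labelled chamber-exposed. Avp, vasopressin of the same nuclei, read 9.49, 12.20 and 11.87 on the arrays labelled paced mated, against 9.93, 11.42 and 11.60 on those labelled chamber-exposed, and both peptides were lowest on arrays 2543 and 2526. The meningeal and matrix genes had a median deviation of −0.95 on array 2538 and −0.22 to 0.53 on the other 5. Astrocyte genes had median deviations between −0.03 and 0.01 on the 6 arrays.

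**Figure D1:**
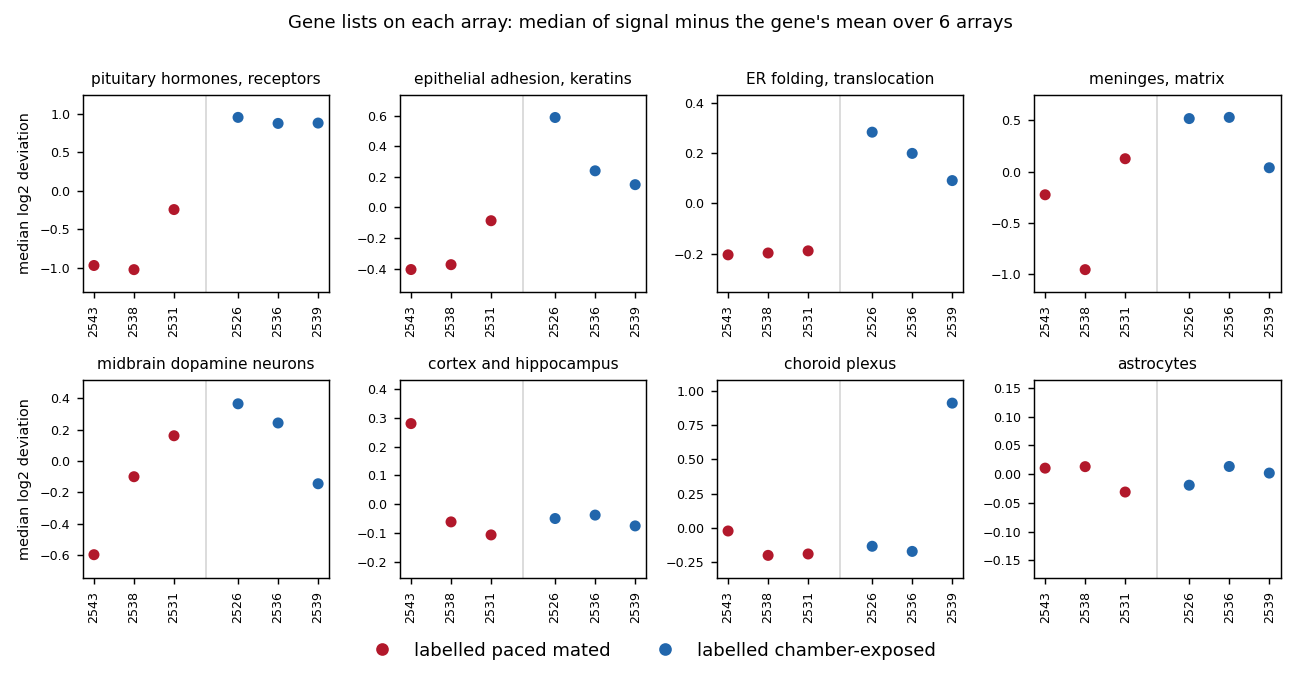
Median over the genes of a list of the log2 signal minus the gene's mean over the 6 arrays (vertical axis, own scale in each panel), for 8 gene lists on each array (horizontal axis), with red points for arrays labelled paced mated and blue points for arrays labelled chamber-exposed. The pituitary list is at −0.97 and −1.02 on arrays 2543 and 2538, at −0.24 on 2531 and at 0.88 to 0.96 on the arrays labelled chamber-exposed, array 2543 stands apart for cortex and hippocampus genes, and array 2539 for choroid plexus genes.

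Arrays were also compared in pairs over all 27035 probe sets tested. Arrays 2531 and 2536, of different labels, were 2-fold or more apart at 55 probe sets, and 2531 was so from 2539 at 80 and from 2526 at 124. From the other arrays labelled paced mated, 2531 was 2-fold or more apart at 78 (2538) and 165 (2543). The closest pair was 2526 and 2536, both labelled chamber-exposed, with 18, and the farthest was 2538 and 2526, with 251.

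Across all genes, the differences of 2-fold or more ran one way. Between the labels, 78 probe sets were 2-fold or more lower on average on the arrays labelled paced mated and 0 were 2-fold or more higher. By the deposited labels, these differences run opposite to the direction that the study gives for its listed genes. The sources used here do not settle whether the labels of these arrays were exchanged, and an exchange would turn the sign of every difference given here. Linear models (limma, Benjamini-Hochberg adjustment over the 27035 probe sets, threshold 0.05) called 11 probe sets lower, 0.0407% of those tested, and 1 higher, 0.0037%. At an unadjusted p under 0.05, 1524 were lower (5.64%) and 999 higher (3.7%), and a further 82 lower and 0 higher had an adjusted p between 0.05 and 0.1. The 3 arrays of each label did not overlap at 2208 probe sets with the paced mated label lower (8.17%) and at 1948 with it higher (7.21%). The median difference over all probe sets was 0.01, and 55.9% of them had a higher mean under the paced mated label and 44.1% a lower one. A plain test of each probe set, which takes the spread from its own 6 values alone, called 0, and 2320 had an unadjusted p under 0.05 in it.

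**Figure D2:**
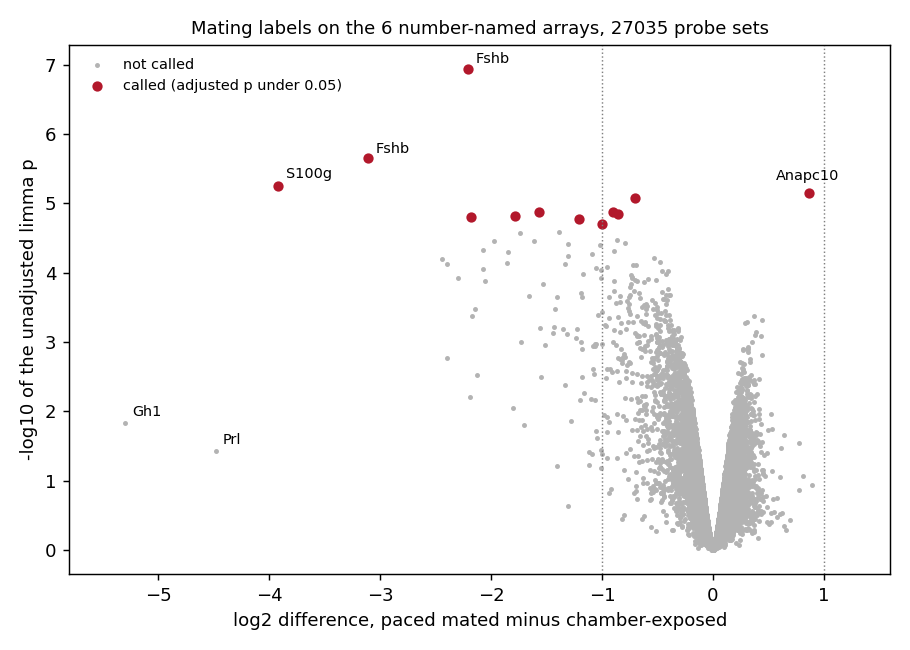
Log2 difference between labels (horizontal axis, paced mated minus chamber-exposed) and −log10 of the unadjusted limma p (vertical axis) for 27035 probe sets, with called probe sets in red and dotted lines at 2-fold. The 11 probe sets called lower lie on the left and 1 called higher, of Anapc10, on the right, while Gh1 and Prl, at −5.30 and −4.48, did not pass the test.

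The called probe sets begin with Fshb, the beta subunit of FSH, the gonadotropin that drives growth of ovarian follicles. It read 6.52, 6.70 and 6.65 on the arrays labelled paced mated, against 9.07, 8.81 and 8.61 on those labelled chamber-exposed. The 3 arrays of each label lay close together and did not overlap the other label. Fshb fell 4.61-fold on the arrays labelled paced mated (log2 difference −2.20, standard error 0.12, adjusted p = 0.00308 from limma), with 6.62 ± 0.09 under the paced mated label and 8.83 ± 0.23 under the chamber-exposed label (SD, n = 3 each). The second probe set of Fshb read 5.24, 5.24 and 6.0 on the arrays labelled paced mated, against 8.93, 8.65 and 8.22 on those labelled chamber-exposed, a fall of 8.6-fold (log2 difference −3.10, standard error 0.24, adjusted p = 0.0299 from limma). On array 2531, where growth hormone and prolactin were high, both Fshb probe sets stayed with the low group.

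S100g, calbindin-D9k, is a calcium-binding protein that estradiol induces in uterus and pituitary. It read 5.72, 7.08 and 6.09 on the arrays labelled paced mated, against 10.67, 9.82 and 10.14 on those labelled chamber-exposed, a fall of 15.1-fold (log2 difference −3.91, standard error 0.35, adjusted p = 0.0414 from limma). The groups did not overlap. S100g and Fshb were thus low on array 2531 together, unlike Gh1, which differed there by −0.71 from the mean of the chamber-exposed arrays, against −4.12 for S100g and −2.18 for Fshb.

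Of the other named genes that fell, Rpl39l1, a paralog of a ribosomal protein gene whose probes may also bind its relatives, read 6.41, 6.54 and 7.03 on the arrays labelled paced mated, against 9.28, 8.78 and 8.46 on those labelled chamber-exposed (log2 difference −2.18, standard error 0.23, adjusted p = 0.0414 from limma). Dsp, desmoplakin of the desmosomes that join epithelial cells, read 6.26, 6.18 and 5.94 on the arrays labelled paced mated, against 7.08, 7.05 and 6.95 on those labelled chamber-exposed (log2 difference −0.90, standard error 0.09, adjusted p = 0.0414). Wnt10a, a secreted Wnt ligand, read 5.33, 5.36 and 5.31 on the arrays labelled paced mated, against 6.39, 6.11 and 6.08 on those labelled chamber-exposed (log2 difference −0.86, standard error 0.09, adjusted p = 0.0414). Amigo3, a transmembrane adhesion protein with leucine-rich repeats, read 6.47, 6.32 and 6.35 on the arrays labelled paced mated, against 7.01, 7.14 and 7.09 on those labelled chamber-exposed (log2 difference −0.70, standard error 0.07, adjusted p = 0.0414). In each of these genes the arrays of the labels did not overlap. A further 4 probe sets without a gene name were called lower, with differences of −1.78 (1383434_at), −1.57 (1393206_at), −1.21 (1379076_at) and −1.0 (1377213_at).

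A single probe set rose. It belongs to Anapc10, a subunit of the anaphase-promoting complex that marks cell-cycle proteins for degradation, and read 7.68, 7.83 and 7.82 on the arrays labelled paced mated, against 6.78, 6.95 and 7.01 on those labelled chamber-exposed (log2 difference 0.86, standard error 0.08, adjusted p = 0.0414 from limma). The brightest probe set of the same gene did not move with it, at 8.09, 8.13 and 8.24 on the arrays labelled paced mated, against 8.06, 8.19 and 8.08 on those labelled chamber-exposed (adjusted p = 0.863), so 1 of the 3 probe sets for the gene was called. Next in order of p among named genes were Mapk11, a p38 stress kinase, with a difference of 0.44 (adjusted p = 0.114), and Suv39h2, a histone methyltransferase, with 0.29 (adjusted p = 0.116), neither past the threshold.

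These counts moved when 1 array was left out. Without array 2543, 2 probe sets were called lower, without 2538, 3, without 2526, 7, and without 2536, 1, while without array 2531 limma called 54 lower and without array 2539, 57. Fshb was called in each of the 6 fits, and S100g in those without 2538, 2531 or 2539. Without array 2531 the calls included Gh1 (adjusted p = 0.00154), Lhb (0.00682), Pou1f1 (0.0313), Epcam (0.0241) and Krt18 (0.0306).

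The pituitary hormones had the largest median difference of the lists. Of 12 listed hormone and receptor genes, 11 had a probe set tested. Of these, 11 had a lower mean on the arrays labelled paced mated, 9 by 2-fold or more, with 1 called and 10 at an unadjusted p under 0.05. Their median difference was −1.86, against 0.01 over all probe sets, of which 44.1% had a lower mean. Of all probe sets, 5.64% were lower at an unadjusted p under 0.05 and 0.0407% were called lower. The members were listed with the study's own gene table known, so the shared direction is not independent evidence.

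Among the gonadotropin genes, Lhb, the beta subunit of LH, read 7.64, 7.72 and 8.91 on the arrays labelled paced mated, against 10.49, 10.12 and 10.56 on those labelled chamber-exposed, with array 2531 between the groups (log2 difference −2.30, standard error 0.32, adjusted p = 0.0685 from limma). Gnrhr, the receptor by which gonadotrophs respond to GnRH, read 5.94, 6.57 and 6.30 on the arrays labelled paced mated, against 7.61, 7.14 and 8.69 on those labelled chamber-exposed (log2 difference −1.55, standard error 0.36, adjusted p = 0.211). Giot1, a zinc finger gene induced by gonadotropins in rat ovary, read 7.25, 6.99 and 7.21 on the arrays labelled paced mated, against 10.14, 9.85 and 8.79 on those labelled chamber-exposed (log2 difference −2.44, standard error 0.31, adjusted p = 0.0631). Giot1 is on no pituitary list. Gnrhr and Giot1 were at their low level on array 2531 too, as was Fshb.

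Tshb, the beta subunit of thyrotropin, read 10.27, 9.25 and 9.80 on the arrays labelled paced mated, against 11.54, 11.88 and 11.48 on those labelled chamber-exposed (log2 difference −1.86, standard error 0.24, adjusted p = 0.064 from limma). Cga, the alpha subunit shared by LH, FSH and thyrotropin, read 11.36, 9.95 and 11.51 on the arrays labelled paced mated, against 13.10, 13.13 and 13.10 on those labelled chamber-exposed (log2 difference −2.17, standard error 0.36, adjusted p = 0.107), and was lowest on array 2538. Gpha2, an alpha subunit of a further glycoprotein hormone, read 7.68, 7.96 and 8.53 on the arrays labelled paced mated, against 9.61, 9.04 and 9.10 on those labelled chamber-exposed (adjusted p = 0.14). The groups did not overlap for any of these 3 genes.

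Pomc, the corticotropin precursor, read 5.97, 5.99 and 6.37 on the arrays labelled paced mated, against 7.32, 7.10 and 6.94 on those labelled chamber-exposed (log2 difference −1.01, standard error 0.13, adjusted p = 0.0657 from limma), and the groups did not overlap. Tbx19, which switches on Pomc in corticotrophs, differed by −0.68 (adjusted p = 0.209). Ghrhr, the receptor of somatotrophs for growth hormone-releasing hormone, read 7.01, 7.13 and 7.12 on the arrays labelled paced mated, against 7.39, 7.34 and 7.37 on those labelled chamber-exposed (adjusted p = 0.158), a small gap with no overlap.

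Gh1 and Prl differed by −5.30 and −4.48, with adjusted p-values of 0.38 and 0.496. Array 2531 lay near the chamber-exposed arrays for both, and without it Gh1 passed the test. Without array 2538 the differences were −3.90 for Gh1 and −2.34 for Prl. Pou1f1, the transcription factor that somatotrophs, lactotrophs and thyrotrophs need, read 5.38, 4.97 and 7.38 on the arrays labelled paced mated, against 8.69, 7.74 and 7.87 on those labelled chamber-exposed (log2 difference −2.19, standard error 0.58, adjusted p = 0.278 from limma), and array 2531 again lay near the higher group. Of 7 pituitary transcription factors tested, 0 were called and 4 were lower at an unadjusted p under 0.05 (5.64% of all probe sets). Pitx1, present throughout the gland, differed by −0.64 and Gata2, of gonadotrophs and thyrotrophs, by −0.23. The plot of pituitary transcripts shows array 2531 near the chamber-exposed level for Gh1, Prl and Pou1f1, and at the level of its own label for Fshb, S100g and Gnrhr.

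**Figure D3:**
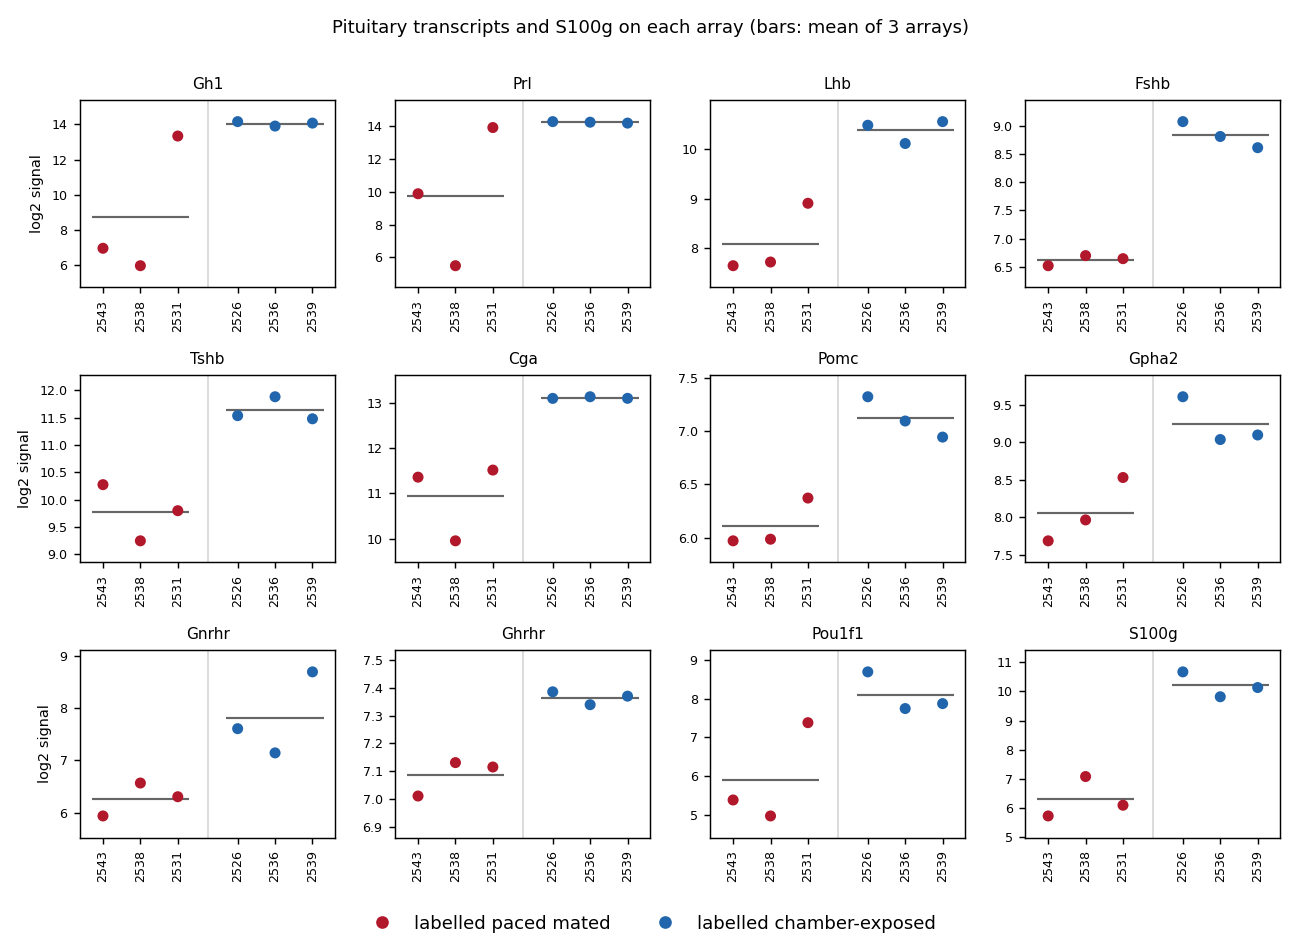
Log2 signal (vertical axis, own scale in each panel) of 11 pituitary transcripts and S100g on each of the 6 arrays, with red points for arrays labelled paced mated, blue points for arrays labelled chamber-exposed and bars for the mean of 3 arrays. Array 2531 reads 13.33 for Gh1 and 13.93 for Prl, near the chamber-exposed arrays, and 6.65 for Fshb and 6.09 for S100g, with the other 2 arrays of its label.

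Sequence upstream of a gene bears on which factors can act there. The promoter window of Lhb is printed because, of the 8 matched genes of the hormone list, it alone held the element searched for. Steroidogenic factor 1 is a nuclear receptor that drives gonadotroph genes, and its element CAAGGTCA was searched on both strands. The window, from RefSeq on the GRCr8 build (chr1:105037207-105037506, plus strand), runs from 250 bases before the start to 50 after, with the element in capitals. It lies on the minus strand and starts 124 bases before the transcription start.
Lhb: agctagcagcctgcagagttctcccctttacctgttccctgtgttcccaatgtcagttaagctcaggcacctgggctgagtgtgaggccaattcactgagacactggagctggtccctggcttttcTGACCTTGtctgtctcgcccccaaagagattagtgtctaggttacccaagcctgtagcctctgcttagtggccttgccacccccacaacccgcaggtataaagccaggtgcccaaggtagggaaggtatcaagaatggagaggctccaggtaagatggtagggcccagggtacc
Of 33469 promoter windows, 509 (1.52%) held this element, and 1 of 8 matched genes of the hormone list did (12.5%). The first share counts single windows and the second counts genes with any matching window, so they are unlike measures. A match is a description of letters and not of binding.

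Transcripts of the secretory pathway had lower means on the arrays labelled paced mated, by smaller steps. All 21 listed genes of ER folding and translocation were tested, 0 were called, and 18 were lower at an unadjusted p under 0.05. That is 85.7% of the list, against 5.64% of all probe sets and 7.4% of all genes with 1 probe set each. The groups did not overlap for 18 of them, with the paced mated label lower (8.17% of all probe sets, 10.3% of all genes). The list was written with earlier results of these data known, so these shares are a description and not independent evidence. The median difference was −0.41, well under 2-fold. Their median deviation was −0.20, −0.20 and −0.19 on arrays 2543, 2538 and 2531, against 0.28, 0.20 and 0.09 on arrays 2526, 2536 and 2539. Array 2531 lay with its label here. The pituitary list had median deviations of −1.02 to −0.24 on the same 3 arrays and 0.88 to 0.96 on the others, and the part of pituitary content in this result was not tested.

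Sec61b, a subunit of the channel through which new proteins enter the ER, read 10.30, 10.27 and 10.50 on the arrays labelled paced mated, against 11.29, 11.15 and 11.01 on those labelled chamber-exposed (log2 difference −0.79, standard error 0.09, adjusted p = 0.0545 from limma). Dnajc3, an ER co-chaperone that also restrains a kinase of the unfolded protein response, read 8.03, 7.95 and 8.37 on the arrays labelled paced mated, against 9.17, 9.02 and 8.85 on those labelled chamber-exposed (log2 difference −0.89, standard error 0.13, adjusted p = 0.0685). Pdia3, a protein disulfide isomerase for glycoproteins, read 12.02, 12.06 and 12.08 on the arrays labelled paced mated, against 12.52, 12.46 and 12.37 on those labelled chamber-exposed (log2 difference −0.40, standard error 0.06, adjusted p = 0.0843). Hspa5 (BiP), the main ER chaperone, read 12.27, 12.16 and 11.99 on the arrays labelled paced mated, against 12.72, 12.63 and 12.42 on those labelled chamber-exposed, and Hsp90b1, its partner, differed by −0.34 (adjusted p = 0.194 and 0.205). Xbp1, the transcription factor that widens secretory capacity, read 11.18, 11.10 and 11.09 on the arrays labelled paced mated, against 11.50, 11.48 and 11.32 on those labelled chamber-exposed (adjusted p = 0.188). Against this, Canx, the membrane chaperone calnexin, lay between 12.34 and 12.44 on the 6 arrays.

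Some secretory genes outside the list are given next, with adjusted p-values between 0.05 and 0.1, and were chosen for their large gaps after their values were seen. Others outside it had smaller gaps and were also added after their values were seen, so they are not independent evidence either. Of these, Sec11a, a signal peptidase subunit, was at −0.41, Dnajb9, an ER co-chaperone, at −0.48 and P4hb, a protein disulfide isomerase, at −0.55. Creb3l1, a membrane-bound transcription factor cut free in the Golgi to switch on secretory genes, read 7.64, 7.84 and 8.09 on the arrays labelled paced mated, against 10.38, 9.54 and 9.57 on those labelled chamber-exposed (log2 difference −1.97, standard error 0.23, adjusted p = 0.0545 from limma). Bhlha15 (Mist1), a regulator of secretory cell structure, read 5.24, 5.20 and 5.35 on the arrays labelled paced mated, against 6.54, 6.14 and 5.93 on those labelled chamber-exposed (log2 difference −0.94, standard error 0.14, adjusted p = 0.0843). Fkbp11, an ER prolyl isomerase of secretory cells, read 6.15, 6.08 and 6.73 on the arrays labelled paced mated, against 8.34, 8.03 and 7.81 on those labelled chamber-exposed (log2 difference −1.74, standard error 0.19, adjusted p = 0.0508). Kdelr3, a receptor that returns ER residents from the Golgi, read 5.74, 5.59 and 6.43 on the arrays labelled paced mated, against 8.88, 8.33 and 7.74 on those labelled chamber-exposed (log2 difference −2.40, standard error 0.31, adjusted p = 0.064). The coat proteins of ER exit vesicles Sec23b and Sec24d differed by −1.09 and −1.31, and Creld2, an ER stress-induced folding factor, by −0.89. For each of these 7 genes, the 3 arrays labelled paced mated lay below the other 3. As they were chosen for large gaps, this is a description and not a separate result.

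**Figure D4:**
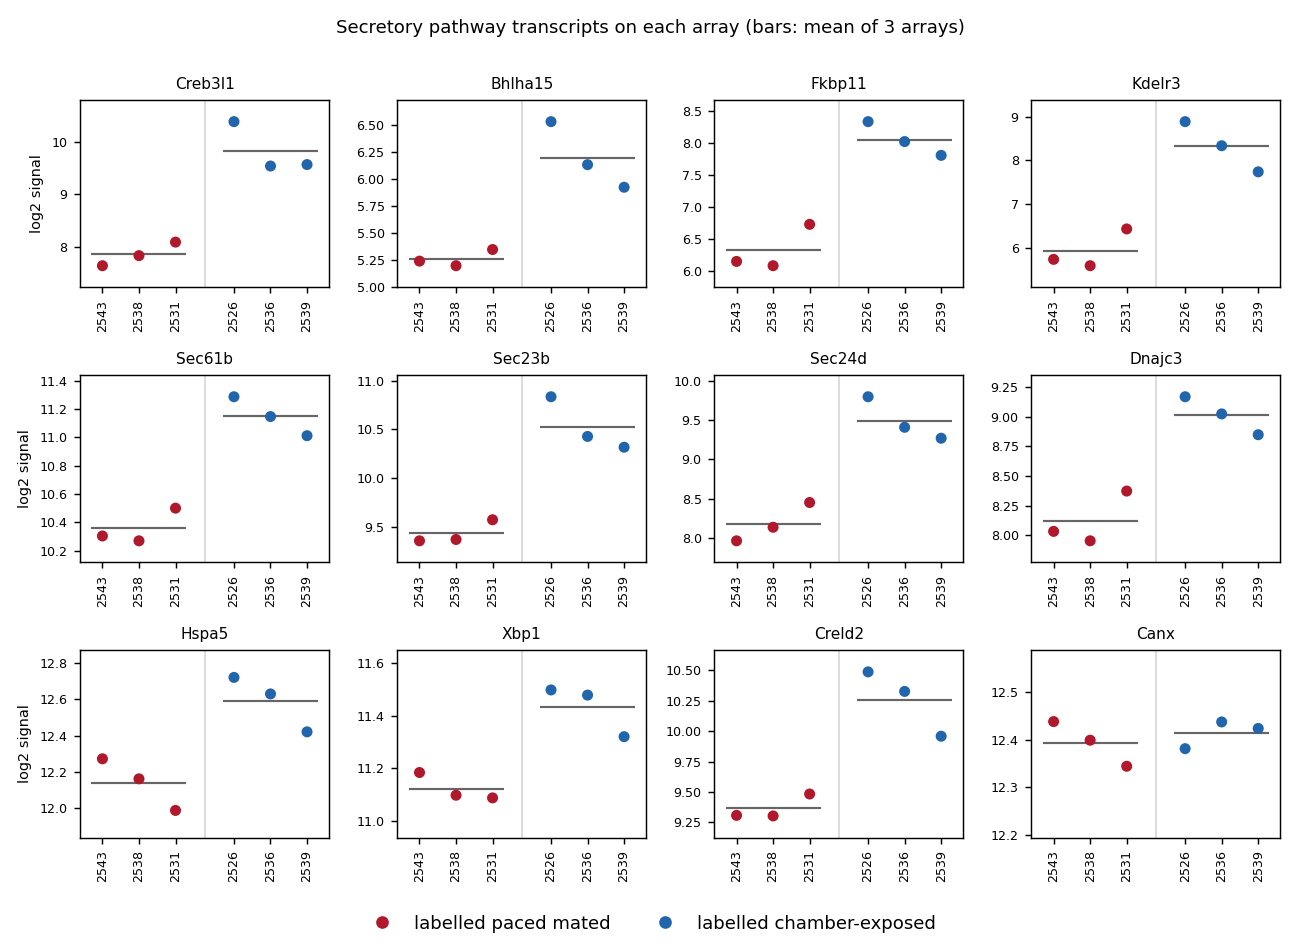
Log2 signal (vertical axis, own scale in each panel) of 12 secretory pathway transcripts on each of the 6 arrays, with red points for arrays labelled paced mated, blue points for arrays labelled chamber-exposed and bars for the mean of 3 arrays. In 11 panels the red points all lie below the blue ones, and Canx shows no such gap. Creb3l1, Bhlha15, Fkbp11, Kdelr3, Sec23b, Sec24d and Creld2 were chosen for large gaps after their values were seen.

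Many genes of this list are known targets of the unfolded protein response, which acts through the ER stress response element, CCAAT and CCACG with any 9 bases between them. Searched on both strands, this element was found in the windows of Calr, Canx, Dnajc3, Hsp90b1, Hspa5 and Xbp1, 6 of 16 list genes with a window (37.5%), and in 22 of 33469 windows in all (0.0657%). Canx, whose signal was even, is among them. The windows of Dnajc3, Hspa5, Xbp1 and the added gene Creld2 are printed as examples that carry the element in genes whose transcripts lay lower on all 3 arrays labelled paced mated. Hsp90b1 and Calr do so too and are not printed. They are RefSeq windows of GRCr8 at chr15:102432417-102432716 (plus strand), chr3:38452766-38453065 (plus), chr14:84604373-84604672 (plus) and chr7:121789134-121789433 (plus), with the element in capitals, starting 133, 43, 65 and 145 bases before the transcription start.
Dnajc3: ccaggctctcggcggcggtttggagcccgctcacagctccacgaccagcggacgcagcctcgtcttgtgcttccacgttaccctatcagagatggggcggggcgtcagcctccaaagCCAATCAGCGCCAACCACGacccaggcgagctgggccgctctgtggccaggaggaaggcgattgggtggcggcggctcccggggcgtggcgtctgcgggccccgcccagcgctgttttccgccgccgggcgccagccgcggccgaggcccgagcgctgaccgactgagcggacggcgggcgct
Hspa5: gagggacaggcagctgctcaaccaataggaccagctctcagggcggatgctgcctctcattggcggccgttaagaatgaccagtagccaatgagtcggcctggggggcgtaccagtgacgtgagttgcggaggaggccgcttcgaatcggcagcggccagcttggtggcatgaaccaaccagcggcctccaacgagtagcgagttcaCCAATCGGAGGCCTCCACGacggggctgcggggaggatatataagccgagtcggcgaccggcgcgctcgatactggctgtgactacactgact
Xbp1: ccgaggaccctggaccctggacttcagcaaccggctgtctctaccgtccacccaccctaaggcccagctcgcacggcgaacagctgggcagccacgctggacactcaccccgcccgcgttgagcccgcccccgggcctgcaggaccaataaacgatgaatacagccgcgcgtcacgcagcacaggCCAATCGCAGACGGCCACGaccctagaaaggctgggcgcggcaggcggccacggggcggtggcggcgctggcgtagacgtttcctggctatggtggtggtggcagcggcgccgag
Creld2: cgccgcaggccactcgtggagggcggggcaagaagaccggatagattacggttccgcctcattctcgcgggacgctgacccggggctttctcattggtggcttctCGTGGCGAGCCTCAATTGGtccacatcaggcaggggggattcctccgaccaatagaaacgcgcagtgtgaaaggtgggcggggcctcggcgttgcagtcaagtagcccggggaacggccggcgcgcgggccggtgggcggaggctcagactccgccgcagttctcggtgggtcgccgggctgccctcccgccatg
In Creld2 the element lies on the minus strand, and in the other 3 on the plus strand.

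Prohormone processing and granule genes were mixed. Of 14 tested, 0 were called, with a median difference of −0.10. At an unadjusted p under 0.05, 6 were lower and 1 higher (5.64% and 3.7% of all probe sets). Pcsk6, a proprotein convertase, read 8.06, 8.09 and 8.28 on the arrays labelled paced mated, against 9.90, 9.28 and 9.24 on those labelled chamber-exposed (log2 difference −1.33, standard error 0.17, adjusted p = 0.064 from limma). Chgb, secretogranin 1 of dense-core granules, read 11.56, 11.59 and 11.92 on the arrays labelled paced mated, against 12.51, 12.35 and 12.35 on those labelled chamber-exposed (adjusted p = 0.0829). Nucb2, the precursor of nesfatin, differed by −1.0 and Sytl4, a docking protein of granules, by −0.62 (adjusted p = 0.102 and 0.133). Neurons of the block make granule proteins as well.

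Epithelial genes, which pituitary cells and choroid plexus also express, had low signals on the arrays with least pituitary content. Of 9 tested, 9 had a lower mean under the paced mated label (44.1% of all probe sets). At an unadjusted p under 0.05, 8 were lower (5.64% of all probe sets), and 0 were called after adjustment. The median difference was −0.63, or −1.23 over the 4 that passed a filter at the 50th percentile. Genes high on the 3 chamber-exposed arrays alone can pass that filter, so −1.23 is not independent of the gap between labels. Epcam, an adhesion molecule of epithelial cells, read 6.85, 6.57 and 7.96 on the arrays labelled paced mated, against 9.13, 8.80 and 8.62 on those labelled chamber-exposed (log2 difference −1.73, standard error 0.33, adjusted p = 0.14 from limma). Krt8 and Krt18, keratins that pair in simple epithelia, differed by −1.23 and −1.23, and Cldn3, of tight junctions, by −0.49. For Krt8 the values were 6.46, 6.59 and 7.24 on the arrays labelled paced mated, against 8.27, 8.10 and 7.61 on those labelled chamber-exposed, with array 2531 again the highest of its label. The part of pituitary content in this group was not tested.

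Of 9 estrogen-induced genes, S100g was called and 4 were lower at an unadjusted p under 0.05 (5.64% of all probe sets). The median difference was −0.09. That median was −0.25 without array 2538, −0.03 without 2526 and −0.87 over the 7 genes that passed a filter at the 50th percentile, so it rests on single arrays and the filter. Genes high on the 3 chamber-exposed arrays alone can pass that filter, so −0.87 is not independent of the gap between labels. Greb1, a cofactor of the estrogen receptor, read 6.54, 6.63 and 6.61 on the arrays labelled paced mated, against 7.63, 7.34 and 7.85 on those labelled chamber-exposed (log2 difference −1.01, standard error 0.12, adjusted p = 0.0545 from limma). Klk1b3, a kallikrein of a family with near-identical members that its probes may not tell apart, read 6.17, 6.46 and 7.59 on the arrays labelled paced mated, against 9.65, 7.89 and 8.08 on those labelled chamber-exposed (log2 difference −1.80, standard error 0.51, adjusted p = 0.323). Array 2531 lay between the groups for Klk1b3 and with its label for Greb1.

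Immediate early genes are switched on within minutes of a stimulus in neurons and glands. Of 18 tested, 0 were called. At an unadjusted p under 0.05, 4 were lower and 0 higher (5.64% and 3.7% of all probe sets). The median difference was −0.02. Without array 2543 it was −0.23 and without array 2526 it was 0.03, so its sign rests on single arrays. Those 4 were Nr4a1, Dusp1, Nr4a2 and Ier2. Nr4a1, an orphan nuclear receptor, read 8.57, 8.31 and 8.75 on the arrays labelled paced mated, against 10.04, 9.56 and 9.54 on those labelled chamber-exposed (log2 difference −1.17, standard error 0.16, adjusted p = 0.0684 from limma). Dusp1, a phosphatase of MAP kinases, read 10.08, 10.19 and 10.22 on the arrays labelled paced mated, against 11.02, 10.66 and 11.05 on those labelled chamber-exposed (adjusted p = 0.078). Nr4a2, needed also for dopamine neuron identity, differed by −0.85 and Ier2 by −0.75 (adjusted p = 0.109 and 0.174). Fos, the usual marker of neuronal activation, read 9.53, 9.28 and 9.67 on the arrays labelled paced mated, against 10.05, 9.65 and 9.65 on those labelled chamber-exposed, and the groups overlapped.

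Of 11 glucocorticoid-responsive genes tested, 0 were called and 7 were lower at an unadjusted p under 0.05 (5.64% of all probe sets). The median difference was −0.45. Fkbp5, a co-chaperone of the glucocorticoid receptor, read 8.44, 8.14 and 8.04 on the arrays labelled paced mated, against 8.66, 8.97 and 8.99 on those labelled chamber-exposed (log2 difference −0.67, standard error 0.13, adjusted p = 0.14 from limma). Sgk1, a kinase induced by corticosterone, read 10.30, 11.49 and 10.60 on the arrays labelled paced mated, against 11.12, 11.74 and 11.89 on those labelled chamber-exposed (adjusted p = 0.503), with array 2538 inside the other group.

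Meningeal and matrix genes had lower means in 18 of 18 cases (44.1% of all probe sets), with a median difference of −0.77 and 0 called. That median was −0.41 without array 2538, where these genes were lowest. Timp1, an inhibitor of matrix proteases, read 6.67, 6.47 and 7.39 on the arrays labelled paced mated, against 8.21, 7.92 and 7.63 on those labelled chamber-exposed, and Pcolce, an enhancer of collagen processing, differed by −1.20 (adjusted p = 0.192 and 0.292). Of 8 MHC class II genes, 4 were lower at an unadjusted p under 0.05 (5.64% of all probe sets) and 0 were called. Cd74, the invariant chain that escorts class II molecules, read 8.30, 7.36 and 8.62 on the arrays labelled paced mated, against 9.59, 9.12 and 9.06 on those labelled chamber-exposed (adjusted p = 0.265), lowest on array 2538 as the meningeal genes were. RT1-Da, a class II alpha chain, differed by −1.06. Dlk1, a membrane protein with EGF-like repeats, differed by −1.18 (adjusted p = 0.211).

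All 14 dopamine neuron genes tested had a lower mean under the paced mated label (44.1% of all probe sets). At an unadjusted p under 0.05, 2 were lower (5.64% of all probe sets), and 0 were called. The median difference was −0.36. It was not shared by array 2531, whose median difference from the chamber-exposed mean was 0.01. For the mean of arrays 2543 and 2538 it was −0.52. That median was −0.13 without array 2543, where Th was lowest, −0.23 without array 2526, where Th was highest, and −0.55 without array 2539. Slc6a3, the dopamine transporter, read 9.63, 10.52 and 10.91 on the arrays labelled paced mated, against 11.44, 11.02 and 10.49 on those labelled chamber-exposed (adjusted p = 0.629), and Th differed by −0.52 (adjusted p = 0.654). Drd2, the D2 dopamine receptor of these neurons and of lactotrophs, read 7.73, 8.15 and 8.46 on the arrays labelled paced mated, against 9.37, 8.91 and 8.49 on those labelled chamber-exposed (adjusted p = 0.356), with no overlap. Drd1, the D1 receptor, read 7.57, 7.01 and 7.30 on the arrays labelled paced mated, against 6.54, 6.80 and 6.96 on those labelled chamber-exposed (adjusted p = 0.342), the opposite order.

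Of 22 glutamate signalling genes, 21 had a higher mean under the paced mated label, 3 at an unadjusted p under 0.05 and 0 called, with a median difference of 0.20, which was 0.10 without array 2543. The exception was Grik1, a kainate receptor subunit, at 7.13, 7.24 and 7.52 on the arrays labelled paced mated, against 8.26, 7.91 and 8.01 on those labelled chamber-exposed (log2 difference −0.76, standard error 0.12, adjusted p = 0.0965 from limma). Grm7, a presynaptic glutamate receptor, differed by 0.27 (adjusted p = 0.306). Of 18 GABA signalling genes, 17 had a higher mean, with a median difference of 0.14 (0.22 without array 2531) and 0 called. Array 2531 lay near the chamber-exposed mean, with median differences from it of 0.02 for the glutamate genes and 0.04 for the GABA genes. For the mean of arrays 2543 and 2538 these were 0.30 and 0.22. Over all probe sets, 55.9% had a higher mean and 3.7% were higher at an unadjusted p under 0.05. Gabrd, the delta subunit of receptors that respond to neurosteroids, read 8.92, 8.89 and 8.79 on the arrays labelled paced mated, against 8.05, 8.55 and 8.74 on those labelled chamber-exposed (adjusted p = 0.481). Sst, somatostatin, differed by 0.41 (adjusted p = 0.214). The 11 steroid receptor and 11 neurosteroid synthesis genes had median differences of −0.01 and −0.02, with 0 called in either and 0 and 2 at an unadjusted p under 0.05, both lower. With 1 array left out these medians were −0.01 to 0.03 and −0.05 to 0.02.

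Some further transcripts set arrays apart in large steps. Sgcb, a sarcoglycan, read 7.11, 7.09 and 9.33 on the arrays labelled paced mated, against 9.31, 9.34 and 7.28 on those labelled chamber-exposed, with 3 arrays near 7 and 3 near 9 across the labels. Slc3a1, an amino acid transporter subunit, read 7.80, 8.23 and 10.33 on the arrays labelled paced mated, against 8.19, 8.28 and 8.32 on those labelled chamber-exposed, high on array 2531 alone. Elavl1, an RNA-binding protein that stabilises messages, read 11.12, 11.01 and 11.05 on the arrays labelled paced mated, against 9.88, 11.06 and 9.91 on those labelled chamber-exposed, low on arrays 2526 and 2539. These 3 were chosen with their values seen, as descriptions of the arrays.

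**Figure D5:**
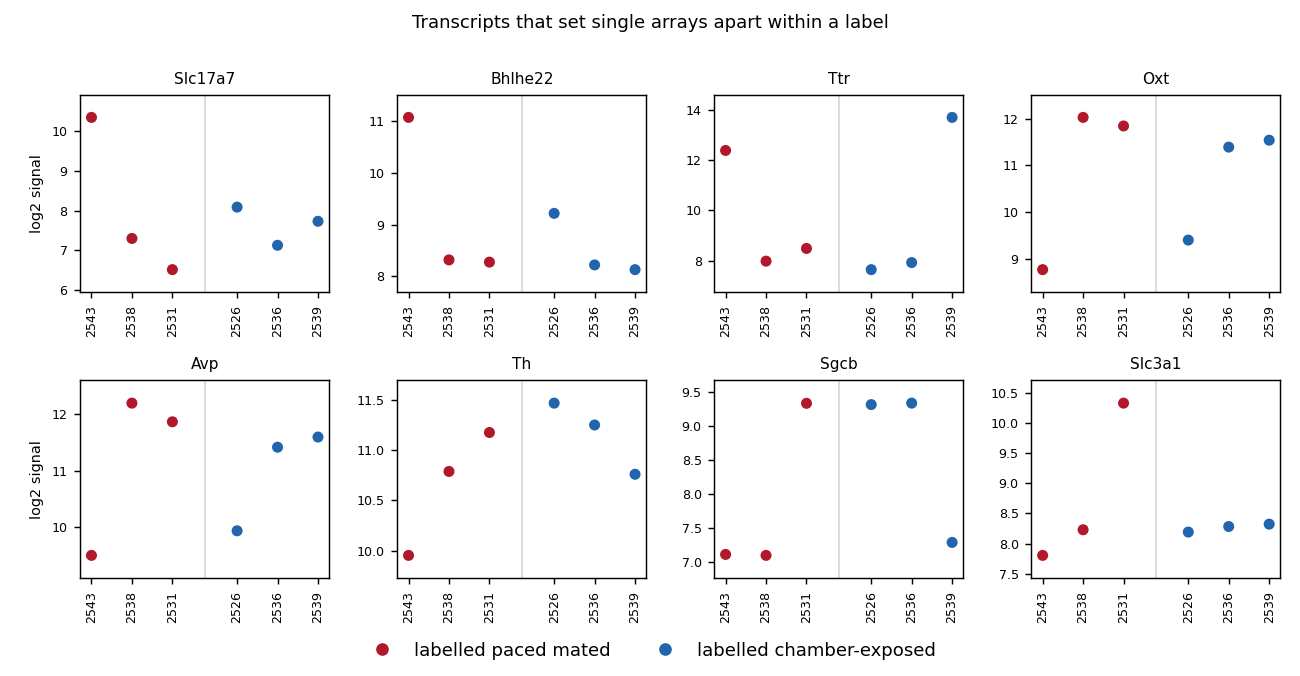
Log2 signal (vertical axis, own scale in each panel) of 8 transcripts on each of the 6 arrays, with red points for arrays labelled paced mated and blue points for arrays labelled chamber-exposed. Slc17a7 and Bhlhe22 are highest on array 2543, Ttr on 2543 and 2539, Oxt and Avp are lowest on 2543 and 2526, and Slc3a1 is high on 2531 alone.

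Genes that the study lists as raised by mating were looked up as well. A probe set was tested for 45 of them. Of these, 44 had a lower mean under the paced mated label (44.1% of all probe sets), 25 by 2-fold or more, with 2 called. They were chosen on samples of the same study, so they are not independent evidence of a direction. Set against the other intact arrays, which were normalized in another run, the difference between labels was unlike at 22 probe sets of 27035 (0.0814%), 12 of them more negative on the number-named arrays and 10 more positive, by the interaction term in limma over the 12 arrays. Fshb, S100g, Tshb, Giot1, Creb3l1 and Fkbp11 were among the 12. At the 10, the difference was −0.08 to 0.21 on the number-named arrays and −2.74 to −0.75 on the arrays titled Intact. The 10 were thus lower under the paced mated label on the Intact arrays, with little difference on the number-named arrays. On the arrays titled Intact, Gh1 averaged 5.90 under the paced mated label and 5.93 under the chamber-exposed label, and S100g averaged 3.84 and 3.81 under the same labels. Levels of S100g this low may leave little room for a fall, though the lowest signal of those arrays was not determined.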

How the data were processed

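Midbrain RNA was hybridised to 24 Affymetrix Rat Genome 230 2.0 arrays, and the 6 number-named arrays of intact rats were analysed here, 3 per label. The authors deposited log2 signals per probe set, made by RMA in Affymetrix Expression Console 1.4 per the submitters' processing notes, whereas the study's methods name GCRMA in GeneSpring. RMA shrinks folds among dim probe sets. The 6 arrays shared a normalization run. Of 31099 probe sets, 57 controls were left out and 27035 passed a filter, which asked for a signal no lower than an array's 20th percentile on 3 or more of the 24. Probe sets named 1 gene in 20832 cases, several in 436 and none in 9831. Labels were compared with limma 3.58.1 in R 4.3.3 (lmFit, eBayes, Benjamini-Hochberg over all probe sets kept, threshold 0.05), on these 6 arrays with no covariate. An exact permutation test of 3 against 3 cannot go below p = 0.1. A gene is represented by its brightest probe set over the 24 arrays, and others are called second.

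Genes named are the called probe sets and those of smallest p in each direction, members of each list with the smallest p or strongest signal, all pituitary list members, and genes that set array 2531 apart. Members and lists were chosen with earlier results of these data known. The share of a list that lay lower or higher is therefore a description and not independent evidence. Lists take 1 probe set per gene. Over all genes taken so, 7.4% were lower at an unadjusted limma p under 0.05. For 10.3% of them the labels did not overlap, with the paced mated label lower. Alternatives covered the filter, normalization, variance model, array weights, the methods' plain test, all 24 arrays and each array left out.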

Additional observations from a re-analysis of the deposited data

Results flagged for a closer look

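The difference between labels was compared with that on the arrays titled Intact by an interaction term in limma, and the results that passed at an adjusted p under 0.05 and belong to genes chosen for description are given here. Each value is the log2 difference on the number-named arrays (paced mated minus chamber-exposed) minus the same difference on the Intact arrays. They included Fshb, at −2.20 (adjusted p = 0.00032), its second probe set at −3.11 (adjusted p = 0.0023), Giot1 at −2.43 (adjusted p = 0.0369) and Tshb at −1.94 (adjusted p = 0.0369). S100g differed by −3.95 (adjusted p = 0.00313). On the Intact arrays, Tshb averaged 3.50 under the paced mated label and 3.41 under the chamber-exposed label. In the same order, S100g averaged 3.84 and 3.81, the second Fshb probe set 3.26 and 3.25, and Giot1 5.65 and 5.66. The lowest signals on the number-named arrays were 3.58 to 3.65, but those arrays come from another run and the lowest signal of the Intact arrays was not determined. Except for Giot1, these levels are low and may leave little room for a fall, so the interaction cannot decide whether the response to mating differed.

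Secretory pathway genes were Creb3l1, at −2.05 (adjusted p = 0.0334), Fkbp11 at −1.81 (adjusted p = 0.0359) and Hyou1, an ER chaperone, at −1.06 (adjusted p = 0.0447). Hyou1 differed by −0.47 on the number-named arrays and by 0.60 on the Intact arrays. Without a gene name, probe sets 1383434_at, 1393206_at and 1377213_at differed by −1.94, −1.53 and −1.02 (adjusted p = 0.0179, 0.0241 and 0.0334). The sets come from separate normalization runs, and on the Intact arrays Fshb averaged 5.03 under the paced mated label and 5.03 under the chamber-exposed label. Set and run cannot be told apart.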

How the results depend on the processing

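Without a filter, or with it set on the 6 arrays alone, the same 12 probe sets were called. The number called lower, 11, was 4 with a filter at the 50th percentile, 2 after quantile normalization, 18 with array medians subtracted, 17 with a variance trend and robust fit, 110 with array weights, 0 by the methods' plain test, 20 with all 24 arrays in the fit, 7 when 2-fold was also required, and between 1 and 57 with 1 array left out. The number called higher, 1, was 0 after quantile normalization, by the plain test, with all 24 arrays and at 2-fold, 2 with array weights, and 0 to 1 with 1 array left out. The probe sets behind these counts changed too. Of the 12 called in the main fit, 12 stayed with array weights and with medians subtracted, 9 with the trend and robust fit and 6 with all 24 arrays. With 1 array left out, 1 to 11 stayed. Probe sets whose labels did not overlap numbered 3028 to 4229 lower and 2819 to 4625 higher with 1 array left out. For the difference between sets, 12 more negative became 22 after quantile normalization and 24 with medians subtracted, and 10 more positive became 19 with medians subtracted. With 1 array left out these were 4 to 132 and 5 to 267, the highest without Intact-5 (132 and 214) and Intact-6 (63 and 267). The cause was not tested. The called genes kept their direction in every alternative run. The brighter probe set of Fshb was called in all of them but the plain test (adjusted p = 0.41), and S100g was not called after quantile normalization (0.0506), with trend and robust fit (0.071), by the plain test (0.472), or without 2543 (0.0563), 2526 (0.0665) or 2536 (0.0928). No paired analysis was possible because the labels give these arrays no shared replicate numbers. The number of arrays, 3 per label, limits the precision, and signals near the low end understate differences.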
